A study of Mesocricetus auratus with 6 samples.

Results

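The genes described here are 38 genes of sugar breakdown and oxygen response, listed by mouse symbol: glucose and lactate transporters, enzymes of glycolysis and of the pentose phosphate pathway, the entry of pyruvate into mitochondria, and the hypoxia pathway around Hif1a. A gene was measured where the platform annotation gave it, and no other gene, for at least 1 probe set. This held for 34 of the 38, with 71 probe sets between them, out of 12393 gene symbols on the array. Gpi1, Eno1, G6pdx and Ankrd37 had no such probe set and were not analysed here. The brightest probe set over all arrays stood for each gene, and in 15 of the 34 it was of a shared type, whose probes may match several transcripts or genes.

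The tissue was uterus of untreated pregnant Syrian golden hamsters, Mesocricetus auratus, collected at day 5 of gestation at sites where an embryo had implanted (3 arrays) and at the interimplantation sites, which hold no embryo (3 arrays). The labels give neither a strain nor an age, and per the series' design text the RNA came from 3 different animals. Whether an animal gave both an implantation and an interimplantation sample is not stated there. If 3 is the total for both sites, some arrays share an animal. The main fit below has no term for the animal and treats all arrays as independent. Samples were whole pieces of uterine wall, so an array mixes epithelium, stroma, muscle, vessels and, at the implantation site, any embryonic cells left in the piece, and fewer cells of a type cannot be told apart from less RNA per cell. Signals are log2 RMA values from an array designed on mouse sequence, so a hamster transcript that matches poorly can look dim and its difference small. Levels are therefore compared between sites for the same probe set and not between genes.

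As background, glycolysis turns glucose into pyruvate in the cytosol, with a small yield of ATP that needs no oxygen. Lactate dehydrogenase turns pyruvate into lactate and restores the NAD+ that glycolysis uses, while the pyruvate dehydrogenase complex sends pyruvate into the mitochondrion. The pentose phosphate pathway branches off after the hexokinase step and supplies NADPH and the ribose of nucleotides. The factor Hif1a is broken down when oxygen is present, because prolyl hydroxylases mark it, and when it is stable it activates many glycolytic genes and genes such as Bnip3, Adm and Car9. In mice, the stroma around an implanted embryo grows and differentiates into decidua, a tissue that takes up glucose and produces lactate.

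Two-sided limma tests were run over 22626 probe sets with Benjamini-Hochberg adjustment, and a gene counted as called at an adjusted p under 0.05. All adjusted p-values of single genes come from this limma fit. At the implantation site the glucose transporter Slc2a1 and the pyruvate kinase Pkm were called higher, at the entry and at the last step of glycolysis. Both calls were lost when any implantation array was left out. Between these steps, Pfkl and Pgk1 had higher means without passing the adjusted test. Hif1a and most hypoxia genes had mean differences close to 0. Of the 34 measured genes 2 were called higher, where 1.36% of all genes were, and 0 were called lower, where 1.18% of all genes were. At an unadjusted p under 0.05 there were 6 higher (6.14% of all genes) and 2 lower (8.67% of all genes). The 6 were Slc2a1, Hk1, Pfkl, Pgk1, Pkm and Pdha1, and the 2 were Ldhb and Adm. In the 6 no implantation array fell within the range of the interimplantation arrays, a separation seen upwards in 8.02% of all genes. Downwards it was seen in Adm and Pdk2, against 12.1% of all genes. The median difference of the 34 was 0.026, beside −0.020 for all genes, and 20 of the 34 differences were positive. Of all genes, 43.8% had a positive difference.

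**Figure D1:**
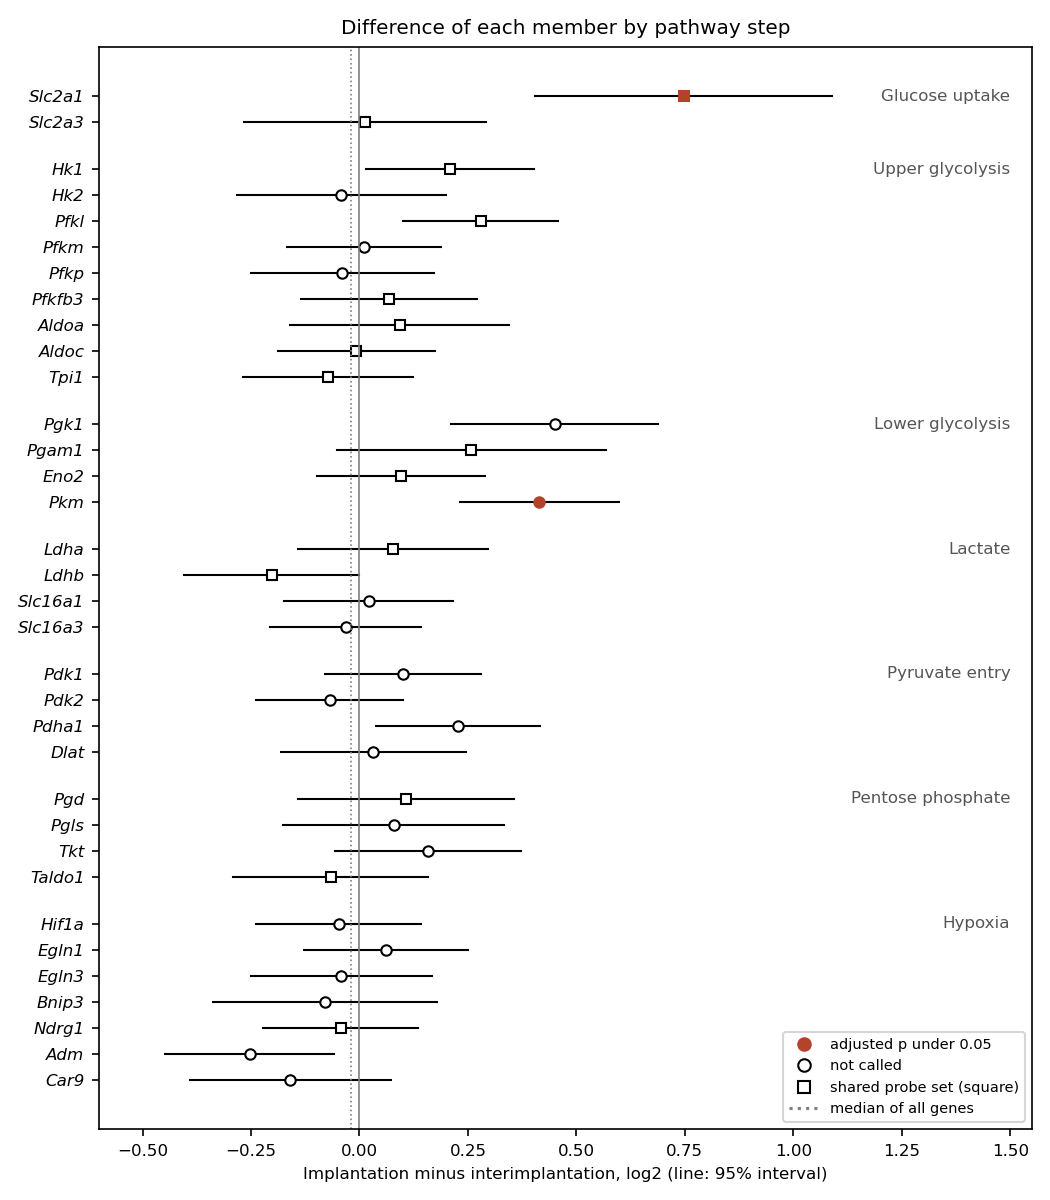
Difference between the implantation and interimplantation sites (log2, horizontal axis) of the 34 measured genes, with the 95% interval of the fit as a line, grouped by pathway step from top to bottom. Slc2a1 (0.75) and Pkm (0.41) are filled as called, the genes of lower glycolysis all lie right of 0, and 6 of 7 hypoxia genes lie left of it.

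The study's arrays were alike in overall level, with medians from 4.55 to 4.57, and no array repeated another. Of 8 genes typical of uterus, among them Hoxa10, Hoxa11 and Hand2, 5 were brighter than the brightest of 27 Bacillus controls (5.79), to which no hamster RNA corresponds. The spiked hybridisation controls averaged 6.64 ± 0.17 on the implantation arrays and 7.03 ± 0.27 on the interimplantation arrays (SD, n = 3 each), a gap of 0.40. The median over all probe sets of the difference between the sites was −0.02 as deposited and 0.38 once each array was scaled to these controls, so every direction given here is relative to most other probe sets. A further model kept the deposited values and added each array's control level as a term, here called the control-adjusted model. The actin control read at its 3' end exceeded that at its 5' end by 0.15 to 0.49 on the implantation arrays and by 0.50 to 0.58 on the interimplantation arrays, which bears on RNA quality. The same contrast for the Gapdh control ran from −0.55 to −0.46 on the implantation arrays and from −0.73 to −0.26 on the interimplantation arrays, so that the groups overlapped.

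Cell type markers also differed between the sites. For their counts, 1.36% of all genes were called higher and 1.18% lower, and 6.14% and 8.67% at an unadjusted p under 0.05. The mean level of 9 smooth muscle markers ran from 5.41 to 5.67 on the implantation arrays and from 5.91 to 6.18 on the interimplantation arrays, with 2 of the 9 called lower. For 12 epithelial markers it ran from 5.11 to 5.22 on the implantation arrays and from 5.33 to 5.42 on the interimplantation arrays, with 2 called lower. Markers of proliferation lay at 4.89 to 4.99 on the implantation arrays and 4.48 to 4.59 on the interimplantation arrays, with 4 of 8 called higher. The 8 measured trophoblast and embryo markers were at 4.48 to 4.53 on the implantation arrays and 4.55 to 4.63 on the interimplantation arrays, and 0 of them were called (unadjusted p under 0.05 for 1, lower). Of 8 endothelial, 7 myeloid, 8 T and NK cell and 4 erythroid markers, 0 were called by limma, with 1 endothelial and 1 erythroid gene lower and 1 myeloid gene higher at an unadjusted p under 0.05. The part of these differences, and of the actin and hybridisation controls, in the results below was not tested.

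Glucose enters cells through facilitative transporters. Slc2a1 (GLUT1, the widespread basal transporter) read 5.99, 5.66 and 5.80 on the 3 implantation arrays, against 4.64, 5.25 and 5.32 on the interimplantation arrays. All 3 implantation values lay above all 3 interimplantation values, and interimplantation array 1 lay 0.61 below the next lowest array. The means were 5.82 ± 0.17 at the implantation site and 5.07 ± 0.37 between the sites (SD, n = 3 each), a difference of 0.75 (SE 0.16, adjusted p = 0.0295) or 1.68-fold (95% interval 1.32 to 2.13). The mean over all arrays, 5.44, was below the brightest Bacillus control (5.79). Slc2a1 was the only measured gene of the 34 to differ by at least 1.5-fold by its brightest probe set, where 1.23% of all genes did in either direction. Its other probe sets read 0.50 and 0.43 higher at the implantation site and missed the threshold (adjusted p = 0.0551 and 0.0745). The probe set at 0.43 is the only one of the 3 that is not of a shared type. With shared probe sets left out it stood for the gene, and Slc2a1 was not called (adjusted p = 0.0904). Without interimplantation array 1 the difference was 0.53 (adjusted p = 0.0166).

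The call was lost when any implantation array was left out (adjusted p from 0.0619 to 0.157) and in the control-adjusted model (0.54, adjusted p = 0.296). Slc2a3 (GLUT3, a transporter of high affinity) averaged 4.99 ± 0.09 at the implantation site and 4.97 ± 0.29 between the sites (SD, n = 3 each). Its difference was 0.01 (95% interval −0.27 to 0.29). The log2 ratio of Slc2a1 over Slc2a3 within an array, which no scaling of arrays can move, was 0.73 higher at the implantation site. Its groups did not overlap by a narrow margin, at 0.16, 0.30 and 0.65 on implantation arrays, against −0.91, −0.34 and 0.15 on interimplantation arrays, around the mean of all arrays. The exact permutation p was 0.1, the smallest that 3 against 3 arrays can give, and 0.25 adjusted over the 10 pairs examined.

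**Figure D2:**
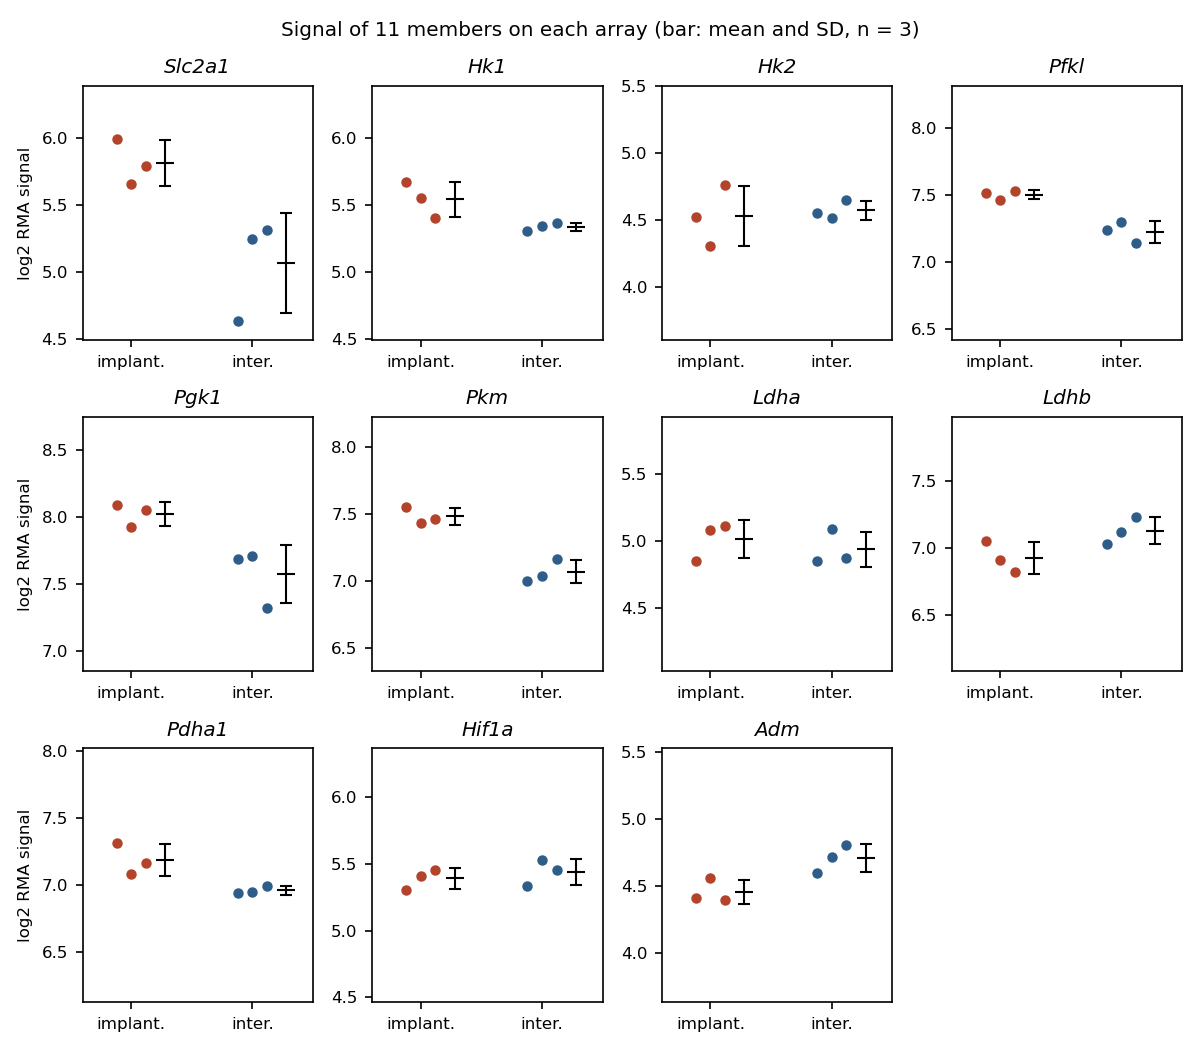
Log2 RMA signal of 11 genes on each of the 3 implantation arrays (left of each panel) and the 3 interimplantation arrays (right), with the mean and SD beside the points; all panels span the same height in log2 units around the gene's own mean. Slc2a1, Pfkl, Pgk1 and Pkm separate upwards at the implantation site, Adm separates downwards, and Hk2, Ldha and Hif1a overlap.

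Upper glycolysis traps glucose as a phosphate and splits the sugar. Of 9 measured genes 0 were called and 2, Hk1 and Pfkl, passed an unadjusted p of 0.05, both higher. Hk1, the hexokinase of most tissues, read 5.67, 5.55 and 5.41 on the implantation arrays, against 5.30, 5.34 and 5.36 on the interimplantation arrays. The lowest implantation array stood only 0.04 above the highest interimplantation array, and the difference of 0.21 did not pass (SE 0.09, adjusted p = 0.317). Both Hk1 probe sets are of a shared type, and the dimmer one differed by 0.05 with overlapping groups. Hk2, the inducible hexokinase, read 4.53, 4.31 and 4.76 on the implantation arrays, against 4.55, 4.52 and 4.65 on the interimplantation arrays. The groups overlapped, with both the lowest and the highest array at the implantation site, and the difference was −0.04 (95% interval −0.28 to 0.20, adjusted p = 0.913).

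Phosphofructokinase, which commits the sugar to glycolysis, has 3 isozymes. The liver-type Pfkl read 7.52, 7.46 and 7.52 on the implantation arrays, against 7.23, 7.30 and 7.14 on the interimplantation arrays. The groups were separate and tight, and the difference of 0.28 (SE 0.08, 1.21-fold) did not pass over all probe sets (adjusted p = 0.122). Its second probe set, far dimmer and also of a shared type, differed by 0.005. The muscle-type Pfkm and the platelet-type Pfkp differed by 0.01 (95% interval −0.17 to 0.19) and −0.04 (95% interval −0.25 to 0.17), and both overlapped between the sites. Within an array, the ratio of Pfkp over Pfkl was 0.32 lower and that of Pfkm over Pfkl 0.27 lower at the implantation site. In both ratios the groups did not overlap, and each exact permutation p was 0.1, the smallest possible (adjusted p = 0.25 over the 10 pairs).

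The other genes of upper glycolysis stayed within 0.10 of 0 on the log2 scale by their brightest probe sets. Pfkfb3, whose product makes the activator of phosphofructokinase, was at 0.07, and the aldolases Aldoa and Aldoc, which split the sugar, at 0.09 and −0.01. Tpi1, which interconverts the triose phosphates, was at −0.07. Aldoa read between 6.24 and 6.26 on all 3 implantation arrays, against 5.86, 6.34 and 6.27 on the interimplantation arrays, and its difference was −0.06 without interimplantation array 1. Its 4 probe sets ran from −0.08 to 0.12, and all of them are of a shared type.

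Lower glycolysis harvests ATP from the triose phosphates. All 4 measured genes had higher means at the implantation site, 1 was called and the median difference was 0.34. Beside this, 43.8% of all genes had a positive difference, 1.36% were called higher and the median was −0.02. Pgk1, the kinase of the first ATP-yielding step, read 8.09, 7.92 and 8.05 on the implantation arrays, against 7.68, 7.71 and 7.32 on the interimplantation arrays. The groups were apart by 0.22, the difference was 0.45 (SE 0.11, 1.37-fold) and the adjusted p of 0.0579 missed the threshold. It passed when arrays were weighted (adjusted p = 0.0195), when interimplantation array 1 was left out (adjusted p = 0.0325), when probe sets dimmer than the median were left out (adjusted p = 0.0393) and with scaling to the controls (0.85, adjusted p = 0.00662). Pgk1 was called in these 4 of the 15 other settings and in none of the rest. Its difference ran from 0.25 to 0.85 over the settings. With single arrays left out it ran from 0.33 to 0.52, with an adjusted p from 0.0325 to 0.242. The other probe sets of Pgk1, both much dimmer and of a shared type, were at 0.23 and 0.08.

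Pkm, the pyruvate kinase of most tissues outside liver and red cells, read 7.55, 7.43 and 7.46 on the implantation arrays, against 7.00, 7.04 and 7.16 on the interimplantation arrays. The groups were separate by 0.27, more than the range within either of them. The means were 7.48 ± 0.06 at the implantation site and 7.06 ± 0.09 between the sites (SD, n = 3 each), a difference of 0.41 (SE 0.08, adjusted p = 0.0253) or 1.33-fold (95% interval 1.17 to 1.51). The call was lost without implantation array 1, 2 or 3 (adjusted p = 0.139, 0.0624 and 0.0947), when interimplantation array 2 was left out (adjusted p = 0.0746) and in the control-adjusted model (0.43, adjusted p = 0.144), although the difference stayed between 0.38 and 0.46 when any single array was left out. The gene's spliced forms PKM1 and PKM2 were not told apart by the 1 probe set. The mutase Pgam1 was at 0.26 (95% interval −0.05 to 0.57), and interimplantation array 2 (4.04) lay among the implantation arrays. Eno2, an enolase best known from neurons, was at 0.10 and dim, and its groups overlapped.

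**Figure D3:**
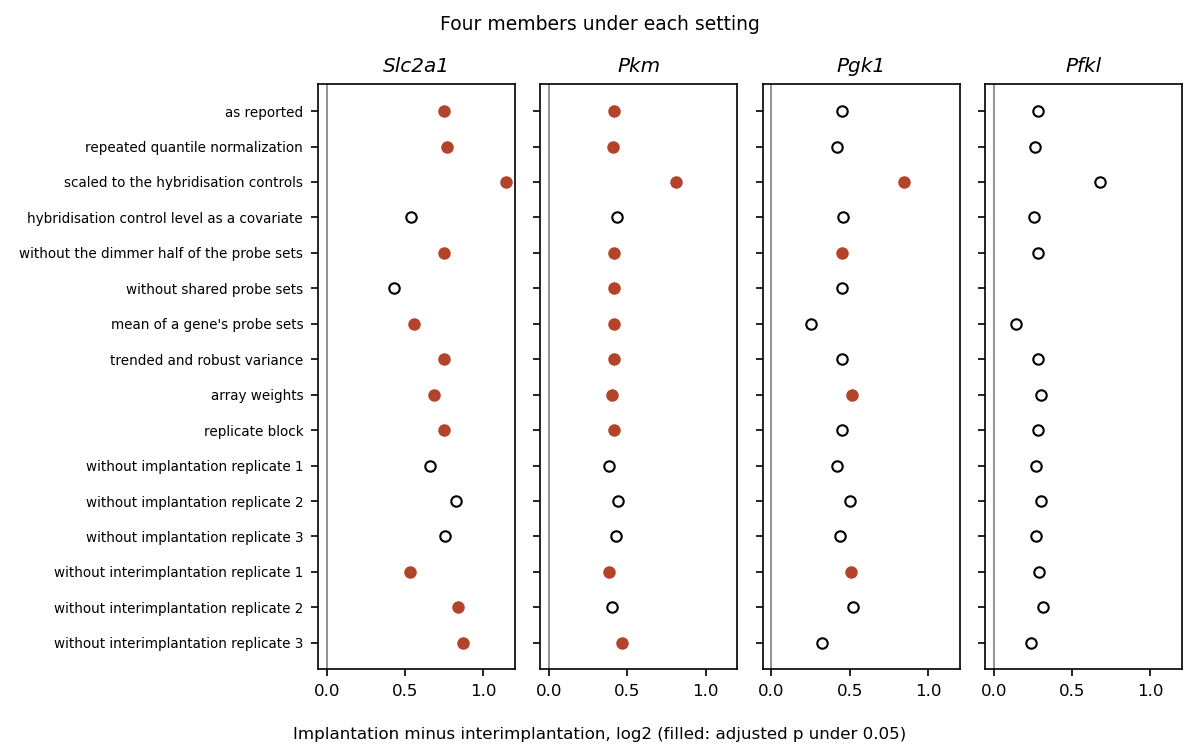
Difference between the sites (log2, horizontal axis) of Slc2a1, Pkm, Pgk1 and Pfkl as reported and under each other setting, filled where the adjusted p is under 0.05; Pfkl has no value without shared probe sets. All differences are positive; Slc2a1 and Pkm lose the call when any implantation array is left out, and Pgk1 gains it in 4 settings.

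At the lactate branch 0 of 4 genes were called, and only Ldhb passed an unadjusted p of 0.05. Ldha is the subunit typical of tissues that produce lactate. It read 4.85, 5.08 and 5.11 on the implantation arrays, against 4.85, 5.08 and 4.87 on the interimplantation arrays. The groups overlapped, and the difference was 0.08 (95% interval −0.14 to 0.30, adjusted p = 0.801) by its single probe set. Ldhb, the subunit typical of tissues that use lactate, read 7.05, 6.91 and 6.82 on the implantation arrays, against 7.03, 7.12 and 7.23 on the interimplantation arrays. Implantation array 1 lay within the interimplantation range, and the difference of −0.20 (SE 0.09) did not pass (adjusted p = 0.356, unadjusted p = 0.0495). All 4 of its probe sets were negative, from −0.27 to −0.10, and all 4 are of a shared type. The ratio of Ldhb over Ldha was 0.28 lower at the implantation site with overlapping groups (exact permutation p = 0.3, adjusted p = 0.6). The lactate carriers Slc16a1 and Slc16a3 (MCT1 and MCT4) were at 0.02 and −0.03, and Slc16a1 was dimmer (2.43) than the median of the Bacillus controls (2.68).

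At the entry to the mitochondrion, Pdha1, the catalytic alpha subunit of pyruvate dehydrogenase, read 7.31, 7.08 and 7.16 on the implantation arrays, against 6.94, 6.94 and 6.99 on the interimplantation arrays. The groups did not overlap, and the difference of 0.23 (SE 0.09) did not pass (adjusted p = 0.251). Its other probe set differed by 0.02. The kinases that switch the complex off were at 0.10 for Pdk1 and −0.07 for Pdk2. The Pdk2 values ran from 4.41 to 4.45 at the implantation site and from 4.47 to 4.53 between the sites, without overlap, and the adjusted p was 0.764. The ratio of Pdk1 over Pdk2 was 0.17 higher at the implantation site with no overlap (exact permutation p = 0.1, adjusted p = 0.25). Dlat, the acetyl-transferring subunit, was at 0.03.

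In the pentose phosphate pathway 0 of the 4 measured genes passed even an unadjusted p of 0.05, and the median difference was 0.09. Tkt, the transketolase that returns sugars to glycolysis, was highest on implantation array 1 (7.08) and lowest on interimplantation array 1 (6.64), with a difference of 0.16 (95% interval −0.06 to 0.37). The lactonase Pgls read 7.22, 7.22 and 7.20 on the implantation arrays, against 6.86, 7.38 and 7.18 on the interimplantation arrays, so that the interimplantation values lay on both sides. Taldo1, the transaldolase, was at −0.07. Pgd, which makes NADPH, was at 0.11 by its brightest probe set, while its 2 dimmest of 4 were at −0.34 and −0.35 (adjusted p = 0.184 and 0.173), so its probe sets disagreed in direction.

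**Figure D4:**
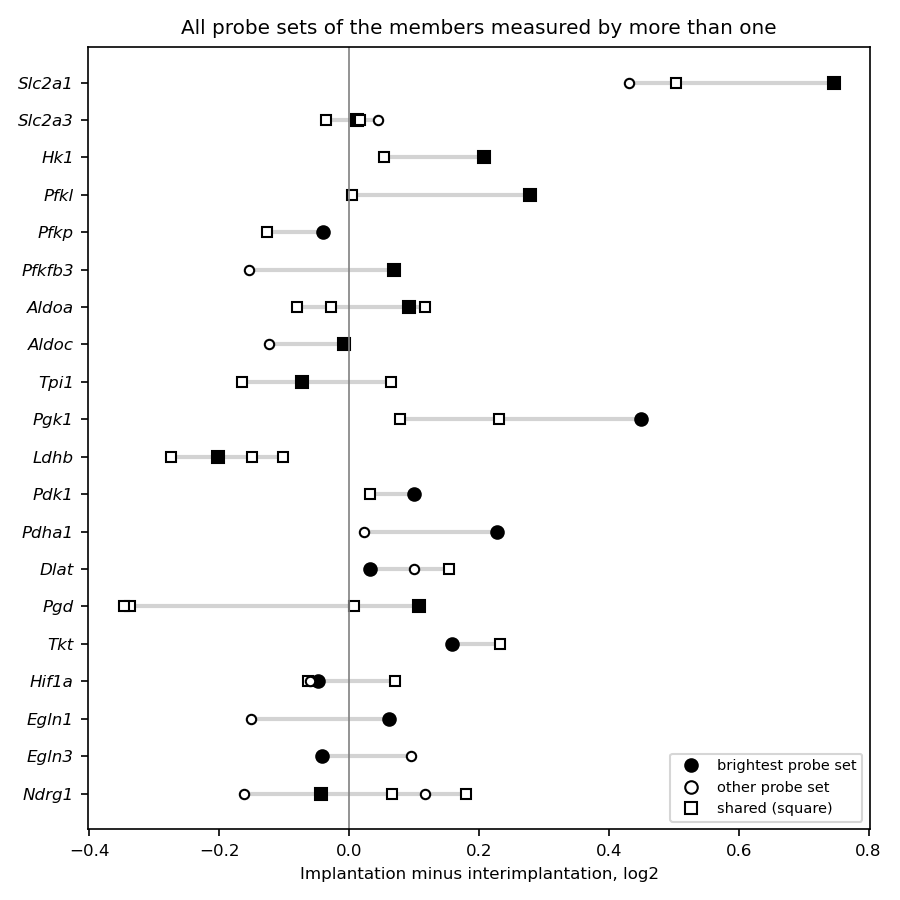
Difference between the sites (log2, horizontal axis) of every probe set of the 20 genes measured by more than 1, with the brightest filled and shared types as squares. All probe sets of Slc2a1 lie right of 0 and all of Ldhb left of it. In 11 of the 20 genes all probe sets lie on the same side of 0. Those of Slc2a3, Pfkfb3, Aldoa, Tpi1, Pgd, Hif1a, Egln1, Egln3 and Ndrg1 lie on both sides.

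Of the hypoxia genes 0 of 7 were called and 6 of 7 had lower means at the implantation site by their brightest probe sets, with a median of −0.05. Of all genes, 6961 of 12393 had lower means, with a median of −0.02. Hif1a read 5.31, 5.41 and 5.45 on the implantation arrays, against 5.33, 5.53 and 5.45 on the interimplantation arrays. The groups overlapped almost wholly, and the difference was −0.05 (95% interval −0.24 to 0.14, adjusted p = 0.864). Other probe sets of Hif1a were at 0.07, −0.06 and −0.06. The Hif1a protein is controlled mainly through its breakdown, which an array of RNA does not measure. The prolyl hydroxylases Egln1 and Egln3, which mark Hif1a for breakdown and of which Egln3 is itself induced by hypoxia, were at 0.06 and −0.04. Their dimmer probe sets had the opposite sign, at −0.15 and 0.10. Adm, the vasodilator peptide adrenomedullin, read 4.41, 4.56 and 4.40 on the implantation arrays, against 4.60, 4.72 and 4.81 on the interimplantation arrays. Its groups were separate by 0.04, and the difference of −0.25 (SE 0.09) did not pass (adjusted p = 0.204). The carbonic anhydrase Car9, a Hif1a target widely used as a hypoxia marker, was at −0.16 (95% interval −0.39 to 0.07). Bnip3, which takes part in the removal of mitochondria, and Ndrg1, a stress-responsive gene, were at −0.08 and −0.04. The 5 probe sets of Ndrg1 ran from −0.16 to 0.18. With scaling to the hybridisation controls all 7 differences were positive, and 0 were called.

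Across arrays, 14 of the 34 genes had their lowest value on interimplantation array 1, and 1 had its highest there. Of all genes, 20.9% had their lowest value on that array and 19.0% their highest. Of the 10 ratios between related genes, the groups did not overlap in 4, namely Slc2a1 over Slc2a3, Pfkp over Pfkl, Pfkm over Pfkl and Pdk1 over Pdk2. Such a separation, in either direction, has an exact permutation p of 0.1, and its share over all gene pairs was not computed. Pfkp over Pfkl and Pfkm over Pfkl both contain Pfkl and are not independent. None of the 10 could pass a threshold of 0.05 with 3 arrays a group, and none is shown to differ between the sites. Among the 13 genes brighter than the brightest Bacillus control, 4 were higher at an unadjusted p under 0.05 (Pfkl, Pgk1, Pkm and Pdha1), where 10.4% of all genes of that brightness were, and 1 was lower (Ldhb), where 10.8% were. The remaining 21 of the 34, among them Slc2a1, Hif1a and Adm, were not brighter than that control. For 31 of the 34 genes the 95% interval lay wholly within 1.5-fold in either direction, with Slc2a1, Pgk1 and Pkm the exceptions. The share of all genes with such intervals was not computed. Mouse probes that match poorly can make a difference small, so these intervals do not show that a gene was unchanged.

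**Figure D5:**
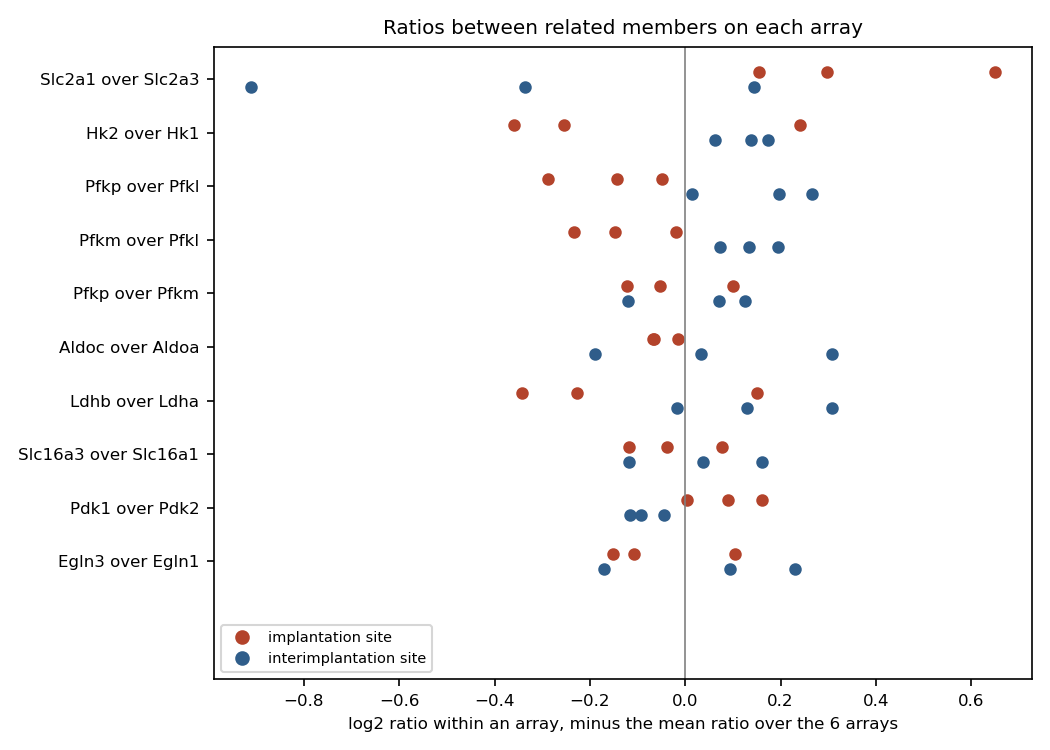
Log2 ratio of 2 related genes on each array, minus the mean of that ratio over the 6 arrays (horizontal axis), with the implantation arrays above the interimplantation arrays in each row. The groups are apart for Slc2a1 over Slc2a3, Pfkp over Pfkl, Pfkm over Pfkl and Pdk1 over Pdk2, and overlap in the other 6 ratios.

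Further genes of these pathways were read as whole lists. The shares of all genes to set beside their counts are 1.36% called higher and 1.18% called lower. At an unadjusted p under 0.05 they are 6.14% higher and 8.67% lower. Of 13 other glycolytic enzymes and transporters 0 were called (at an unadjusted p under 0.05, 0 higher and 1 lower). Bsg, the chaperone that carries the lactate transporters to the membrane, read 6.26, 6.33 and 6.26 on the implantation arrays, against 6.48, 6.59 and 6.56 on the interimplantation arrays, a separation with a difference of −0.26 (adjusted p = 0.142). The fructose and glucose transporter Slc2a8 was at −0.12. In the citrate cycle and its entry 1 of 22 genes was called (at an unadjusted p under 0.05, 5 higher and 2 lower). Fh1, the fumarase, averaged 4.32 ± 0.10 at the implantation site and 3.93 ± 0.09 between the sites (SD, n = 3 each). The difference of 0.39 was called (adjusted p = 0.0444). Fh1 lost the call whichever array was left out (adjusted p from 0.0576 to 0.165) and when limma trended its variance robustly (adjusted p = 0.0522). The call was also lost in the control-adjusted model (0.22, adjusted p = 0.421). The Fh1 probe set is of a shared type. Its mean over all arrays (4.12) was below the brightest Bacillus control (5.79). The malate dehydrogenase Mdh2 was at 0.33 (adjusted p = 0.157). Of 10 other genes of pentose phosphate and NADPH supply 0 were called or reached an unadjusted p of 0.05, with Me1 at 0.23 and Idh1 at −0.20.

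Among 19 other hypoxia genes 1 rose and 1 fell (at an unadjusted p under 0.05, 3 were higher and 2 lower). Of all genes, 1.36% were called higher and 1.18% lower, and 6.14% and 8.67% at an unadjusted p under 0.05. P4ha1, a collagen prolyl hydroxylase induced by hypoxia in many cells, read 4.64, 4.68 and 4.80 on the implantation arrays, against 4.13, 4.16 and 4.23 on the interimplantation arrays (difference 0.53, adjusted p = 0.00584), and lost the call in the control-adjusted model (adjusted p = 0.0664). Kdm3a, a histone demethylase of the same list, went the other way. It read 4.64, 4.90 and 4.96 on the implantation arrays, against 5.52, 5.80 and 5.54 on the interimplantation arrays, wide apart (difference −0.79, SE 0.11, adjusted p = 0.00311). With scaling to the hybridisation controls Kdm3a was at −0.39 and not called (adjusted p = 0.154). All of its other settings kept the call. By their means over all arrays, P4ha1 (4.44) and Kdm3a (5.23) were both dimmer than the brightest Bacillus control (5.79). Of 13 genes of glycogen and gluconeogenesis 0 were called; at an unadjusted p under 0.05, 2 were higher and 1 lower. Ugp2, which makes UDP-glucose for glycogen, was at 0.22 and Pck2, the mitochondrial phosphoenolpyruvate carboxykinase, at 0.20 (adjusted p = 0.267 and 0.347).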

How the data were processed

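The authors deposited 1 table of log2 values, made with Partek 6.6 and RMA per the submitters' processing notes. The order of steps and the log base are not given in the sources used here, and base 2, on which the folds depend, was taken from what RMA usually writes. RMA removes shifts shared by all probe sets of an array. Of its 22690 probe sets, 64 are controls, and the other 22626 were fitted without a filter. Of these, 20380 had 1 gene symbol in the platform annotation, 691 had several and 1555 had none. Of the 34 measured members, 31 symbols are also symbols of the hamster RefSeq annotation (BCM_Maur_2.0).

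The 3 implantation and 3 interimplantation arrays were set against each other by limma 3.58.1 in R 4.3.3, using lmFit and eBayes with group as the only term, two-sided, with Benjamini-Hochberg adjustment over all 22626 probe sets. Differences are implantation minus interimplantation. Ratios of related genes were tested by exact permutation over the 20 splits of the arrays. The calculation was tested on simulated data with independent noise, which checks the calculation and not the calls made here. The number of arrays limits the precision. Members and gene lists were chosen with earlier results of these data known. Every member is named. Values of every array are given for members at an unadjusted p under 0.05 or at least 1.5-fold and for Slc2a1, Hk2, Pfkl, Ldha, Pkm and Hif1a, and for a few others chosen after their values were seen. Of each further list, called genes and the 2 with the smallest p are named. Alternatives were another normalization, uses of the hybridisation controls, filters on dim or shared probe sets, an average over each gene's probe sets, another variance model, array weights, the replicate number as a block and leaving out each array.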

Additional observations from a re-analysis of the deposited data

Results flagged for a closer look

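Gapdh, the glycolytic enzyme just before Pgk1, had no probe set of its own among those tested, but the array carries 3 control probe sets for it, along the 3', 5' and middle parts of its transcript, which the comparison left out. They were added to the fit after their values were seen. The 3' probe set read 8.88, 8.97 and 8.83 on the implantation arrays, against 8.22, 8.34 and 8.21 on the interimplantation arrays (difference 0.63, limma adjusted p = 0.00237). The middle probe set averaged 10.04 ± 0.05 at the implantation site and 9.36 ± 0.16 between the sites (SD, n = 3 each; difference 0.67, adjusted p = 0.00318). The 5' probe set averaged 9.41 ± 0.12 at the implantation site and 8.82 ± 0.30 between the sites (SD, n = 3 each; difference 0.59, adjusted p = 0.0415). In all 3 probe sets the groups did not overlap. Leaving out each array in turn kept the calls of the 3' and middle probe sets (adjusted p up to 0.0182 and 0.0233), while the 5' probe set was called in 2 of the 6 fits (adjusted p from 0.0267 to 0.167). In the control-adjusted model the differences were 0.52, 0.47 and 0.23 for the 3', middle and 5' probe sets and were not called (adjusted p = 0.0652, 0.0917 and 0.511). With scaling to those controls they were 1.03, 1.07 and 0.98, all called. Mouse pseudogenes of Gapdh are numerous, and whether these probe sets also read other hamster transcripts was not tested.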

How the results depend on the processing

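The 34 members were refitted under 15 other settings. Members called higher numbered 2 as reported, 0 in the control-adjusted model, 1 without shared probe sets, and 0 to 3 when each array was left out: 0 without implantation array 1, 2 or 3, and 3, 1 and 2 without interimplantation array 1, 2 and 3 in turn. They numbered 3 with array weights, scaling to the controls and without probe sets dimmer than the median. Members called lower numbered 0 in each setting. Of all probe sets, 284 were higher and 238 lower as reported. Scaling to the controls gave 752 and 13, the control-adjusted model 77 and 130, leaving out shared probe sets 138 and 96, array weights 360 and 363, and leaving out 1 array 117 to 329 higher and 88 to 401 lower. The replicate block gave 294 and 240 with 2 members higher, and changed no call of a member. The labels do not say that a replicate number marks an animal, and deviations of same-numbered arrays from their group means correlated at −0.09, 0.07 and −0.03, too low to take the numbers as a pairing, which does not show that no arrays share an animal. Scaling to the controls turned 14 of the 34 signs and put the median member at 0.42, beside 0.38 for all probe sets, and the control-adjusted model turned 12. No called member changed sign in any setting. Of the 34 members, 24 had an unshared probe set and 25 passed the filter on dim ones, and averaging each gene's probe sets gave no count of probe sets. Adjustment over 22626 probe sets, 3 arrays a group and mouse probes limit what small differences can show.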

Other observations

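Cs, the citrate synthase that opens the citrate cycle, was counted above by its brightest probe set, at 7.39 ± 0.01 at the implantation site and 7.14 ± 0.11 between the sites (SD, n = 3 each; difference 0.25, limma adjusted p = 0.182). Another of its probe sets, picked with its values in view, was called at 0.41 (adjusted p = 0.0427), and the other one was at 0.12.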
